A study of Mus musculus with 2 samples.

Results

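The 10 genes described here are the core of the NRF2 pathway and of glutathione synthesis: Nfe2l2, Keap1, Nqo1, Hmox1, Gclc, Gclm, Srxn1, Txnrd1, Slc7a11 and G6pdx. They were taken by gene symbol from a table of 22882 symbols, and all 10 were found, each on 1 row. The data compare hearts of csMed1-/- mice, in which Med1 was deleted in cardiomyocytes, with hearts of Med1fl/fl mice, which carry the floxed Med1 alleles. Both groups were untreated, 23 days old, of mixed sex and on the C57BL6/J background. For each genotype the RNA of 5 hearts was combined and sequenced as 1 library. The spread between hearts is therefore unknown, and the genotypes are compared by plain ratios without a test.

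Cre was driven by the α-myosin heavy chain promoter, so Med1 was targeted in cardiomyocytes only, and the other cells of the heart keep the floxed gene. Med1, a subunit of the Mediator complex that links transcription factors to RNA polymerase II, was at 3.38 FPKM in the Med1fl/fl library and at 0.412 FPKM in the csMed1-/- library, a ratio of 0.122. FPKM counts the sequenced fragments of a gene relative to the length of its transcript and to the mapped fragments of the library, so levels of different genes can be set side by side. In whole-heart RNA, fewer cells of a type and less RNA per cell cannot be told apart.

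NRF2, encoded by Nfe2l2, is a transcription factor that KEAP1 holds in the cytoplasm and hands to a CUL3 ubiquitin ligase for degradation. Electrophiles and oxidants modify cysteines of KEAP1, NRF2 then escapes, enters the nucleus, pairs with a small MAF protein and binds antioxidant response elements beside genes of detoxification. Much of this control acts on the NRF2 protein, which RNA values do not show. Glutathione, the main small thiol of the cell, is built from cysteine, glutamate and glycine: the xCT transporter (Slc7a11 with Slc3a2) brings in cystine, glutamate-cysteine ligase (Gclc with Gclm) makes the first bond, and glutathione synthetase (Gss) adds glycine.

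In short, 6 of the 10 genes were higher and 4 were lower in csMed1-/- than in Med1fl/fl heart. Of all genes kept, 46.8% were higher, the share to set beside such counts of genes above and below control here and further on. Hmox1 and Slc7a11, 2 of the 10, rose past 2-fold, the fold threshold that the study states. None of the 10 was lower past 2-fold. The study also set a cutoff on the false discovery rate, which was not applied here, so these calls are not the study's calls. Past 2-fold were 20% of the 10 genes, against 31.5% of the 10489 genes kept, of which 13.6% were higher and 18.0% lower. A gene was kept if neither library had it at 0 and the higher of its values reached 1 FPKM, and all 10 genes here reached 1 FPKM in both libraries. By direction, 20% of the 10 genes were higher past 2-fold against 13.6% of all genes, and 0% were lower against 18.0%, shares that rest on 2 genes. The median log2 ratio of the 10 genes was 0.63 against -0.07 for all genes, whose quartiles were -0.72 and 0.55. The 6 higher genes all lay at or above the upper quartile, and none of the 4 lower genes reached the lower quartile.

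The sequences beside the start sites of these genes are shown first, because NRF2 acts on its targets through a short element, the antioxidant response element, searched for here as TGACNNNGC on both strands. The windows are those of RefSeq on GRCm38.p6, the assembly also named mm10, and run from 250 bases before to 50 bases after the start site. Such windows were at hand for 8 of the 10 genes, Hmox1 and Gclc being the others, and 5 of these 8 (Nfe2l2, Gclm, Srxn1, Txnrd1 and G6pdx) held the element. Over all genes with a window, 14.0% held it. Matches that lie before the start site are printed below on the gene's own strand, 5′ to 3′, with the 9 letters of the element in capitals.
Nfe2l2, chr2:75704855-75704913, minus strand: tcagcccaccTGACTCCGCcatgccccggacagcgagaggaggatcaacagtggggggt
Gclm, chr3:122245383-122245471, plus strand: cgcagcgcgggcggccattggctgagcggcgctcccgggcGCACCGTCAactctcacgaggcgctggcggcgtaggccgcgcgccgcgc
Txnrd1, chr10:82859074-82859162, plus strand: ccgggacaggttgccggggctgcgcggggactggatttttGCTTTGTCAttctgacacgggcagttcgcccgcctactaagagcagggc
G6pdx, chrX:74428889-74428977, minus strand: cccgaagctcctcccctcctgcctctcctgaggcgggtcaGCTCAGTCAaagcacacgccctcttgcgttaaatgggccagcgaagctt

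The Nfe2l2 match reads as printed, and the others lie on the opposite strand of the gene, so that their capitals are the element's reverse complement. Txnrd1 has 3 windows, of which 1 held a match. The Srxn1 match begins 28 bases after the start site and is not printed. A match only says that these letters occur in the window, and elements farther from the start site were not searched. The members with a match had ratios from 0.766 (Txnrd1) to 1.91 (G6pdx), and those with a window and no match from 0.892 (Keap1) to 2.70 (Slc7a11), so the ranges overlap.

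A different short sequence stood in the window of Slc7a11, 1 of the 2 genes past 2-fold. TGATGCAA is a form of the amino acid response element, which ATF4 binds, and it was searched for after the values were seen, on both strands. It occurred in 1.03% of all genes with a window and in 1 of the 8 genes here. Slc7a11 holds 2 copies in opposite directions, at positions -66 and -47 from the start site of this window, as the capitals show. That start site lies inside the gene span given for Slc7a11 below, not at its outer end.
Slc7a11, chr3:50443614-50443719, minus strand: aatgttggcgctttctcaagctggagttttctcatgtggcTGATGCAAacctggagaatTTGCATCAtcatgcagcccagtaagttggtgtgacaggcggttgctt

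Chac1, which encodes an enzyme that degrades glutathione, also had TGATGCAA, at position -193. It fell from 9.20 FPKM in the control library to 4.29 FPKM, a ratio of 0.466, the opposite direction to Slc7a11. Whether ATF4 acts on either gene was not tested.

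The regulators come first. Nfe2l2 (chromosome 2, 75675513 to 75704663, minus strand), the gene of NRF2, was at 16.9 FPKM in Med1fl/fl and at 26.7 FPKM in csMed1-/- heart (ratio 1.58). Keap1 (chromosome 9, 21229730 to 21239332, minus strand), the gene of its inhibitor, was at 34.2 FPKM and 30.5 FPKM, a ratio of 0.892. Neither was past 2-fold. The level of Nfe2l2 divided by that of Keap1, both in FPKM, was 0.495 in Med1fl/fl and 0.875 in csMed1-/- heart.

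Hmox1 (chromosome 8, 75093618 to 75100593, plus strand) encodes heme oxygenase 1, the inducible enzyme that opens the heme ring to biliverdin, carbon monoxide and iron. It rose from 10.2 FPKM to 30.4 FPKM, a ratio of 3.0 and the highest of the 10 genes. It ranked 698 of the 10489 genes kept, from the highest ratio. The rest of heme breakdown was within 2-fold. Hmox2, the constitutive heme oxygenase, had a ratio of 0.641. Blvra and Blvrb, the genes of biliverdin reductases A and B, had ratios of 0.780 and 1.02.

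Slc7a11 (chromosome 3, 50364936 to 50499087, minus strand), the xCT subunit that exchanges cystine for glutamate, rose from 3.26 FPKM to 8.81 FPKM, a ratio of 2.70, and ranked 824. Its partner Slc3a2, the heavy chain that carries xCT to the cell surface and serves other amino acid transporters too, rose from 40.6 FPKM to 145 FPKM, a ratio of 3.56. Both chains of the transporter were thus higher past 2-fold. Slc3a2 was 12.5 times the level of Slc7a11 in Med1fl/fl and 16.4 times in csMed1-/- heart, on the FPKM scale.

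The subunits of glutamate-cysteine ligase, the rate-limiting enzyme of glutathione synthesis, differed in direction. Gclc (chromosome 9, 77754535 to 77794489, plus strand), the catalytic subunit, was at 1.86 FPKM in Med1fl/fl and at 1.44 FPKM in csMed1-/- heart (ratio 0.772), and had the lowest level of the 10 genes in both libraries. Gclm (chromosome 3, 122245487 to 122267215, plus strand), the modifier subunit that lowers feedback inhibition of the enzyme, was at 10.5 FPKM and 15.8 FPKM, a ratio of 1.51. Gclm was 5.62 times the level of Gclc in Med1fl/fl and 11.0 times in csMed1-/- heart. The next enzyme, Gss, rose from 12.0 FPKM to 36.1 FPKM, a ratio of 3.0.

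Srxn1 (chromosome 2, 152105524 to 152111376, plus strand) encodes sulfiredoxin, which restores over-oxidized peroxiredoxins. It was at 9.96 FPKM in Med1fl/fl and at 18.1 FPKM in csMed1-/- heart (ratio 1.82), just inside 2-fold. Txnrd1 (chromosome 10, 82833951 to 82897724, plus strand), the cytosolic thioredoxin reductase that keeps thioredoxin reduced with NADPH, was at 11.5 FPKM and 8.81 FPKM, a ratio of 0.766 and the lowest of the 10 genes. Its substrate Txn1 was at 47.0 FPKM and 65.0 FPKM, a ratio of 1.38.

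Nqo1 (chromosome 8, 107388225 to 107403205, minus strand), a quinone reductase and a standard NRF2 target, had the highest level of the 10 genes in both libraries, 39.7 FPKM in Med1fl/fl and 36.0 FPKM in csMed1-/- heart. Its ratio of 0.907 was the nearest to 1. G6pdx (chromosome X, 74409483 to 74428880, minus strand) encodes glucose-6-phosphate dehydrogenase, which feeds glucose into the pentose phosphate pathway and makes NADPH. It was at 5.29 FPKM and 10.1 FPKM, a ratio of 1.91, the highest of the genes within 2-fold. With ratios centred on the median of all genes its log2 ratio was 1.01, past 2-fold, so its place on either side of the threshold depends on the scaling.

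**Figure D1:**
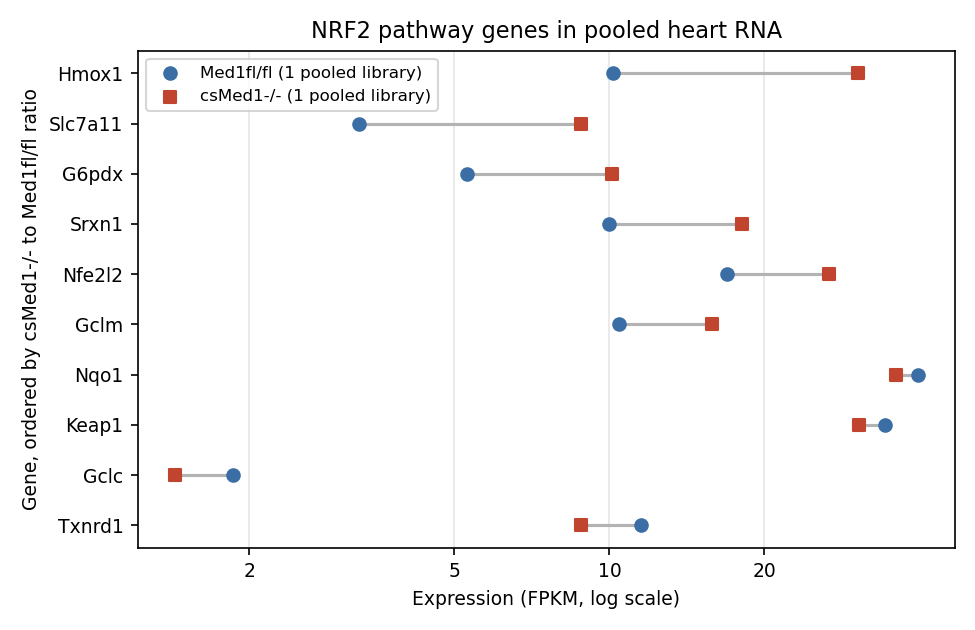
Expression of the 10 NRF2 pathway genes in FPKM (log axis) in the pooled Med1fl/fl library (circles) and the pooled csMed1-/- library (squares), 1 library each with no error bar, ordered by ratio. Hmox1 and Slc7a11 show the widest gaps, to the right, whereas Nqo1, Keap1, Gclc and Txnrd1 sit slightly to the left of control.

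The genes fell into 3 ranges. Hmox1 and Slc7a11 had ratios of 3.0 and 2.70. G6pdx, Srxn1, Nfe2l2 and Gclm, 4 genes, lay between 1.51 and 1.91, where 10.2% of all genes kept lay between 1.5-fold and 2-fold higher. Nqo1, Keap1, Gclc and Txnrd1 lay between 0.766 and 0.907, within 1.5-fold, as did 46.5% of all genes. With no replicate library, the order of genes within each range was not tested. Among the 10489 genes kept, the share with a lower log2 ratio was 93.3% for Hmox1 and 92.1% for Slc7a11. It lay between 76.7% (Gclm) and 85.2% (G6pdx) in the middle range, and between 37.1% (Txnrd1) and 47.1% (Nqo1) in the lowest. The levels of the 10 genes summed to 143 FPKM in Med1fl/fl and to 187 FPKM in csMed1-/- heart, a ratio of 1.30.

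**Figure D2:**
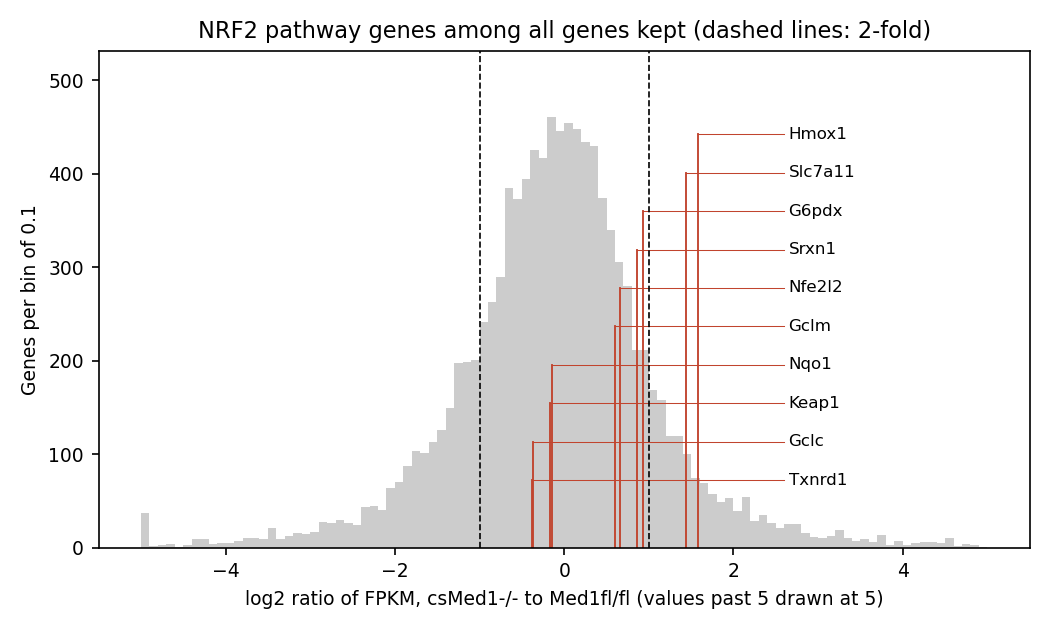
Histogram of the log2 ratio of csMed1-/- to Med1fl/fl FPKM over the 10489 genes kept (vertical axis, genes per bin), with each of the 10 NRF2 pathway genes marked by a line. Only Hmox1 and Slc7a11 pass the dashed line for 2-fold higher, and none passes that for 2-fold lower. Values beyond 5 in either direction are drawn at 5.

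The depth is not given in the sources used here, but low values step in units of 1 fragment, which gives a rough estimate of it. Those steps put 1 fragment at about 0.0161 FPKM for a 1 kb transcript in Med1fl/fl and at about 0.0124 in csMed1-/- heart, so that the csMed1-/- library was about 1.30 times as deep. By that estimate the 10 genes rested on about 395 (Gclc, Med1fl/fl) to 7834 (Keap1, csMed1-/-) fragments. The approximate 95% intervals of the ratio, which cover counting error only, were 2.79 to 3.21 for Hmox1, 2.56 to 2.84 for Slc7a11, 1.77 to 2.07 for G6pdx and 0.671 to 0.887 for Gclc. Of the other genes above 1, Srxn1 had an interval of 1.72 to 1.92, Nfe2l2 of 1.5 to 1.65 and Gclm of 1.45 to 1.57. Of those below 1, Txnrd1 had an interval of 0.726 to 0.809, Keap1 of 0.864 to 0.922 and Nqo1 of 0.869 to 0.947. The interval of G6pdx thus included 2-fold, although its ratio of 1.91 did not pass it, and none of the 10 intervals included 1. The library scaling was taken as given and the longest transcript of each gene was used, so the intervals may be too narrow. The intervals hold nothing of the variation between hearts or between pools, which cannot be estimated here.

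Of the other regulators of the pathway, 12 were listed and 10 were kept. Among these 9 were above and 1 was below their control level, 3 were higher and 0 were lower past 2-fold, a share of 30.0% higher against 13.6% of all genes, and the median log2 ratio was 0.43. Maff, a small MAF partner of NRF2 that itself lacks an activation domain, rose from 4.96 FPKM to 59.2 FPKM, a ratio of 11.9, and 101 of the 10489 genes had a higher ratio. Mafk, another small MAF, rose from 16.3 FPKM to 71.5 FPKM, a ratio of 4.38. Dpp3, a peptidase that binds KEAP1, rose from 17.2 FPKM to 46.5 FPKM. The third small MAF, Mafg, was at 8.34 FPKM and 12.3 FPKM, within 2-fold. The lowest ratios were those of Btrc (0.707), which serves in a KEAP1-independent route of NRF2 degradation, Crebbp (1.04), a coactivator, and Cul3 (1.22), the scaffold of the KEAP1 ligase.

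The windows of Maff, Mafg and Mafk each held TGACNNNGC as well. No match was found for the other regulators listed, and 14.0% of all genes with a window held the element. The window of Maff, the gene of this list with the highest ratio, is shown beside that of Prdx1. Prdx1 is an NRF2 target whose window held the stricter TGACTCAGC, found in 0.503% of all genes and in none of the 8 genes above.
Maff, chr15:79346469-79346557, plus strand: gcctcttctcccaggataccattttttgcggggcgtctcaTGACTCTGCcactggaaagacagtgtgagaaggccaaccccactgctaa
Prdx1, chr4:116685426-116685514, plus strand: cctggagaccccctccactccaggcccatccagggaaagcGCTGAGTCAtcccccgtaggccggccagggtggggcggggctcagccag

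Prdx1, a peroxiredoxin, was at 372 FPKM in Med1fl/fl and at 261 FPKM in csMed1-/- heart (ratio 0.70), and Maff had a ratio of 11.9. Me1, another NRF2 target, also held TGACTCAGC, at position -6, and had a ratio of 0.687. The genes with a match named here thus lay on either side of 1. They are a picked set, since further listed genes also had a match, among them Pgd, Hagh and Gsta3.

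Further NRF2 targets lay on both sides of their control level, 9 above and 12 below. Of 24 listed, 21 were kept, and 2 were higher and 3 were lower past 2-fold. For a list of 21 genes these shares, 9.52% and 14.3%, are close to the 13.6% and 18.0% over all genes. The median log2 ratio was -0.23. Pgd, the second NADPH-making dehydrogenase of the pentose phosphate pathway, rose from 29.1 FPKM to 73.4 FPKM, a ratio of 2.52. Osgin1, a growth inhibitor induced by oxidative stress, rose from 4.21 FPKM to 10.1 FPKM. Cbr3, a carbonyl reductase, had a ratio of 1.53. The genes lower past 2-fold were Aox1, an aldehyde oxidase (2.70 FPKM to 0.508 FPKM), Gsta3 (8.09 FPKM to 1.68 FPKM) and Gstp1 (334 FPKM to 153 FPKM), both glutathione transferases. Aox1 passed the filter only through its Med1fl/fl value, and with 1 FPKM required in both libraries 2 genes were lower. Me1, the cytosolic malic enzyme, was at 33.4 FPKM and 23.0 FPKM, a ratio of 0.687.

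Glutathione handling beyond the ligase was divided. Of 20 listed genes of its synthesis, reduction and turnover 15 were kept, 7 were higher and 3 lower past 2-fold, 46.7% and 20% against 13.6% and 18.0% of all genes, with a median log2 ratio of 0.54. Dpep1, a dipeptidase that splits cysteinylglycine released from glutathione, rose from 44.4 FPKM to 221 FPKM, a ratio of 4.99. Slc1a1, a glutamate and cysteine transporter, rose from 0.456 FPKM to 1.74 FPKM, and Dpep2, another dipeptidase, from 0.829 FPKM to 3.13 FPKM. Slc1a1, Dpep2 and Ggt7 passed the filter only through their csMed1-/- value, and with 1 FPKM required in both libraries 4 genes were higher, Dpep1, Slc3a2, Gss and Hagh, and the median log2 ratio turned to -0.02. The genes lower past 2-fold were Anpep (11.4 FPKM to 4.75 FPKM) and Lap3 (20.5 FPKM to 9.79 FPKM), both aminopeptidases, and Chac1. Gsr, which reduces oxidized glutathione with NADPH, was at 9.25 FPKM and 9.21 FPKM.

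**Figure D3:**
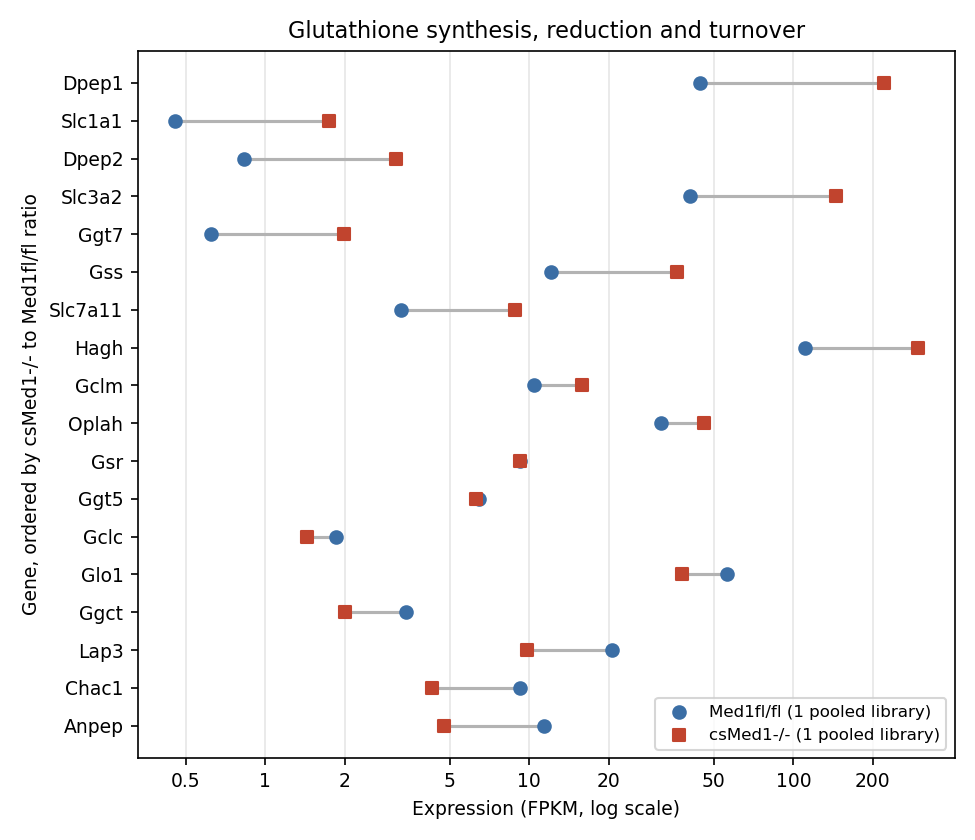
FPKM (log axis) of Slc7a11, Gclc and Gclm with the 15 genes kept of glutathione synthesis, reduction and turnover in the pooled Med1fl/fl (circles) and csMed1-/- (squares) libraries, ordered by ratio. The cystine transporter chains Slc3a2 and Slc7a11 and the synthetase Gss lie to the right of control, Gsr has a ratio near 1 and Gclc lies slightly to the left.

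Glutathione transferases join glutathione to electrophiles. Of 23 listed 19 were kept, 16 of them were below their control level, 8 were lower past 2-fold and 1 was higher, which is 42.1% lower against 18.0% of all genes, with a median log2 ratio of -0.76. Gsto2 passed the filter only through its Med1fl/fl value. With 1 FPKM required in both libraries 7 were lower, and the median log2 ratio was -0.70. Gsta4, which detoxifies the lipid peroxidation product 4-hydroxynonenal, fell from 57.3 FPKM to 6.0 FPKM, a ratio of 0.105. Gstk1, the mitochondrial and peroxisomal transferase, fell from 103 FPKM to 18.8 FPKM, a ratio of 0.181. The exception was Gsto1, an omega-class transferase with thiol reductase activity, which rose from 202 FPKM to 459 FPKM. Gstm4 and Gstm5 had ratios of 1.69 and 1.05. Genes of this family share near-identical stretches, Gstp1 and Gstp2 above all, so reads may have been split between them.

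The thioredoxin and glutaredoxin systems held no gene higher past 2-fold. All 18 of the genes with a row were kept, and 4 were lower, 22.2% against 18.0% of all genes, with a median log2 ratio of -0.25. Msrb2, a mitochondrial methionine sulfoxide reductase, fell from 55.4 FPKM to 9.77 FPKM, a ratio of 0.176. Glrx, the cytosolic glutaredoxin, fell from 61.7 FPKM to 22.7 FPKM, and Prdx3, the mitochondrial peroxiredoxin, from 354 FPKM to 155 FPKM. The highest ratios were those of Txnip (1.67), which binds and inhibits thioredoxin, Prdx4 (1.49) and Prdx6 (1.39).

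NADPH, which G6pdx supplies, also comes from other enzymes. The list used here holds such enzymes and related genes that make no NADPH themselves, among them Pgls, Tkt, Taldo1, Rpia and Nadk. Of the 15 genes kept, 10 were below their control level, with a median log2 ratio of -0.54. Past 2-fold, 1 was higher (Pgd) and 5 were lower, 6.67% and 33.3% against 13.6% and 18.0% of all genes. Rpia, with a ratio of 0.418, was among the 5 lower. The count of 5 became 3 with a pseudocount of 1 FPKM and 2 with 10 FPKM required in at least 1 library. Within the oxidative pentose phosphate pathway G6pdx, Pgls (153 FPKM to 276 FPKM, a ratio of 1.80) and Pgd were all higher, although only Pgd passed 2-fold. H6pd, the enzyme of the endoplasmic reticulum, had a ratio of 1.27. The lowest ratios were those of Idh1, the cytosolic isocitrate dehydrogenase (9.47 FPKM to 2.18 FPKM), Nnt, the mitochondrial transhydrogenase (387 FPKM to 123 FPKM), and Aldh1l1 (1.02 FPKM to 0.391 FPKM), which passed the filter only through its Med1fl/fl value. G6pd2, an intronless copy of G6pdx, was below 1 FPKM in both libraries.

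**Figure D4:**
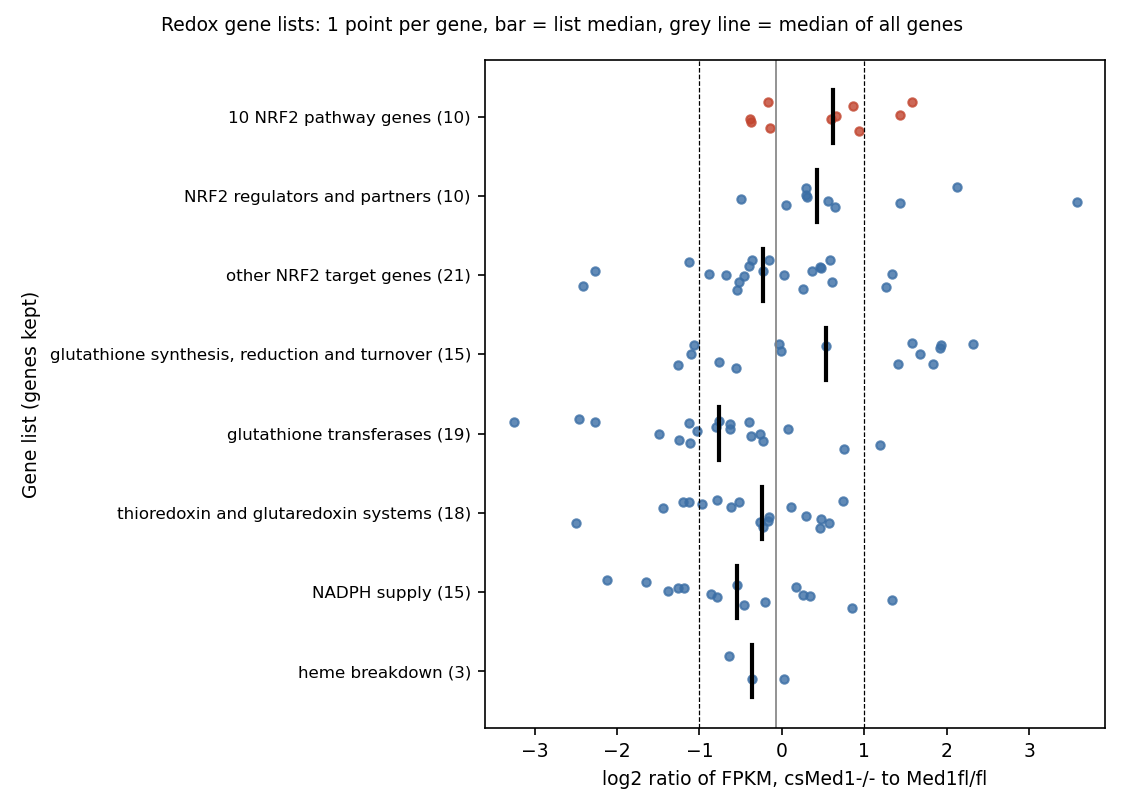
log2 ratio of csMed1-/- to Med1fl/fl FPKM for the genes kept in each list (1 point per gene, vertical position within a list is arbitrary, bars are list medians, dashed lines mark 2-fold). Of the 10 NRF2 pathway genes, 6 lie right of the grey all-gene median of -0.07, and the transferases lie mostly left of it.

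Over these lists, which share some genes, 106 further genes were counted once, 90 were kept, and 13 were higher and 21 lower past 2-fold, 14.4% and 23.3% against 13.6% and 18.0% of all genes. All counts are descriptions of 1 library per genotype, and these lists were not tested against other genes.

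Markers of several cell types moved between the same libraries. For their counts past 2-fold, the shares over all genes were 13.6% higher and 18.0% lower. Macrophages, which express Hmox1 strongly, had 9 markers kept, of which 1 (Cd14) was higher and 0 were lower past 2-fold, and the summed level of the 11 markers with a row was 334 FPKM in Med1fl/fl and 384 FPKM in csMed1-/- heart (ratio 1.15). C1qa and C1qb, the markers with the highest sum over both libraries, had ratios of 1.35 and 1.65, and Lyz2, the highest in Med1fl/fl, had a ratio of 0.587. Of the 9, 6 were above and 3 below their control level. Of 8 fibroblast markers 4 were higher and 1 (Lum, ratio 0.463) lower, and their sum went from 503 FPKM to 1193 FPKM. Much of that rise lay in Col1a1 (129 FPKM to 502 FPKM, a ratio of 3.87) and Col1a2 (95.7 FPKM to 314 FPKM, a ratio of 3.29). These 2 had the highest sums over both libraries. Col3a1 and Dcn, with Med1fl/fl levels of 139 FPKM and 114 FPKM, had ratios of 1.58 and 0.847, and Pdgfra had a ratio of 0.985. Of 8 endothelial markers 1 was higher and 3 were lower, with sums of 442 FPKM and 339 FPKM and ratios of 0.838 for Pecam1 and 0.717 for Cdh5. Of 7 smooth muscle and pericyte markers 2 were higher and 1 lower, with sums of 708 FPKM and 1111 FPKM, of which Acta2 went from 573 FPKM to 310.0 FPKM and Cnn1 from 4.32 FPKM to 622 FPKM. Of 3 markers of red cell precursors with a row 2 were kept, Alas2 and Slc4a1, with ratios of 2.29 and 4.94, the sum of all 3 went from 36.5 FPKM to 85.7 FPKM, and the hemoglobin genes were not analysed here.

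Of 7 cardiomyocyte markers kept, 5 were lower past 2-fold, 71.4% against 18.0% of all genes, and none was higher. Myl3 and Myl2, with the highest sums over both libraries, had ratios of 0.593 and 0.321. Markers of the heart muscle were thus abundant in both libraries, at a sum of 51234 FPKM in Med1fl/fl and 29804 FPKM in csMed1-/- heart over the 9 markers with a row. Actc1 and Mb are listed at 0 in Med1fl/fl, which leaves them without a ratio and lowers that library's sum, and Myh6 was not analysed here. The part that these marker changes had in the values of the 10 genes was not tested.

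**Figure D5:**
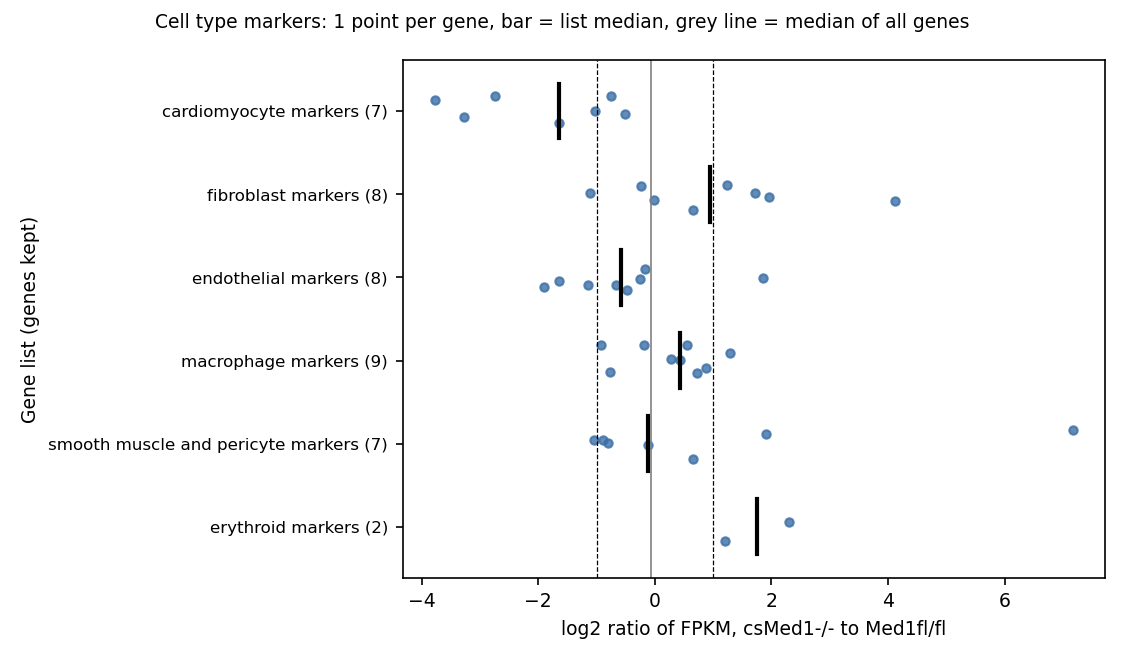
log2 ratio of csMed1-/- to Med1fl/fl FPKM for the cell type markers kept (1 point per gene, bars are list medians, dashed lines mark 2-fold). Cardiomyocyte markers lie left of 0, fibroblast markers mostly right of it, and macrophage markers spread around a median log2 ratio of 0.43.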

How the data were processed

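Pooled RNA of 5 hearts per genotype was oligo-dT selected and sequenced as 1 directional single-end library each. Alignment by the authors used TopHat2 2.0.8b on mm10, and the deposited values, in FPKM, were taken as those of known genes from Cufflinks with Cuffdiff 2.1.1, which the study's methods name. The submitters' processing notes also name Bowtie2, STAR and DESeq2 without a role. Library scaling by cuffdiff is not given in the sources used here.

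Here, rows sharing a symbol (412 symbols) were summed, and the plain ratio of csMed1-/- to Med1fl/fl FPKM was taken without a pseudocount. Genes above 0 in both libraries with 1 FPKM in either were kept, and counted as changed past 2-fold. The 1-fragment step was the first peak of FPKM times length among genes with 1 RefSeq transcript of at least 1500 bases (lengths from GENCODE M21), an estimate made after seeing the values. Gene positions and promoter windows came from RefSeq on GRCm38.p6, strands from GENCODE. The call rule was run on a copy of the Med1fl/fl library with known changes far past the threshold, which checks the code only. That copy holds no variation between pools, so it does not show how reliable calls from 1 library per genotype are. Python 3.11.15 with numpy 2.4.6, pandas 2.3.3 and matplotlib 3.10.9 was used.

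The 10 genes and all lists were chosen with earlier results of these data known. The genes named are the 10, the 3 highest and 3 lowest ratios kept per pathway list, Gss, Gsr, Slc3a2, Txn1, Me1 and Pgd, and the 2 most abundant markers per cell type. Mafg, Prdx1, Ggt7, Hagh, Gstp2, Gsto2, Cd14, G6pd2, Actc1, Mb, Lyz2, Col3a1 and Dcn were added after their values were seen. So were Lum, Pdgfra, Rpia, Tkt, Taldo1 and Nadk. Alternatives were pseudocounts, filters, scalings, the highest row of a symbol and other thresholds.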

Additional observations from a re-analysis of the deposited data

How the results depend on the processing

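The direction of all 10 genes was the same under the 9 alternatives to pseudocount, filter, scaling and row, and none of the 88 ratios moved by over 1.5 times as a fold, although log2 ratios near 0 shifted by more in proportion (Nqo1 from -0.14 to -0.07 and Keap1 from -0.16 to -0.09 with centring on the median). This sameness says little. Filters and the choice of row cannot alter the ratio of a gene on 1 row, and an equal pseudocount cannot change its direction. Each scaling shifts all genes by 1 constant, a log2 factor of -0.07 for centring on the median. The count of the 10 genes higher past 2-fold was 2, and became 1 when 10 FPKM was required in at least 1 library (Slc7a11 and Gclc drop out), 6 at a 1.5-fold and 0 at a 4-fold threshold. Centring on the median added G6pdx. The share of all genes kept that was higher past the threshold was 13.6%. It was 15.1% with 10 FPKM, 15.0% with centring, 23.7% at 1.5-fold and 4.32% at 4-fold. Over the further pathway genes, 13 higher and 21 lower became 19 higher and 34 lower at 1.5-fold, and 3 higher and 6 lower at 4-fold. Over all genes, 3309 past 2-fold became 5686 of 15930 with no minimum, 1706 of 5426 with 10 FPKM, and 5608 and 992 of 10489 at 1.5-fold and 4-fold. The stricter TGACTCAGC was found in the windows of 0 of the 8 genes in place of 5. Within single lists, 26 of 154 counts moved by over 1.5 times, under other filters, thresholds or a pseudocount of 1. Of 63 list medians 1 changed sign, that of glutathione synthesis, reduction and turnover, from 0.54 to -0.02 with 1 FPKM required in both libraries. It was 0.89 with no minimum and 0.98 with 10 FPKM. No paired analysis was possible because each genotype has 1 pooled library, and leaving out a replicate was not possible either.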

Other observations

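Of the further pathway genes with a row, 14 were below 1 FPKM in both libraries or at 0 in both. Bach1, the repressor that competes with NRF2 for small MAF partners and is known for holding Hmox1 down, was at 0.646 FPKM in Med1fl/fl and at 0.421 FPKM in csMed1-/- heart. Ggt1, the main enzyme that opens extracellular glutathione, was at 0.0345 FPKM and 0.461 FPKM. Cth, which makes cysteine from cystathionine, was at 0.497 FPKM and 0.139 FPKM, and Cbs, the step before it, at 0.230 FPKM and 0.545 FPKM. Gsta1 and Gsta2, classical NRF2 targets in liver, were at 0.208 FPKM and 0.140 FPKM in Med1fl/fl and at 0.0243 FPKM and 0.0118 FPKM in csMed1-/- heart. These genes were chosen for mention after their values were seen.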
